A study of Mus musculus with 8 samples.

Results

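Among 5 mouse glioblastomas profiled by RNA sequencing, 2 carried high levels of Olig1 transcripts and 3 carried low levels, and these 2 groups were compared across all genes. The fragments counted for the Olig1 RefSeq entries were divided by all fragments of the library, and a tumour was called Olig1-high at 50 CPM (fragments scaled to a common library total) or more, so the members were chosen by their measured Olig1 level. Tumours 1 and 4 held 101 and 294 CPM of Olig1 on this scale and formed the Olig1-high group. Tumours 2, 3 and 5 held 5.65, 4.11 and 5.95 CPM and formed the Olig1-low group. The members nearest the threshold were tumour 1 inside it and tumour 5 outside it, and the 3 normal brains, which took no part in the split, held 63.5, 42.2 and 40.9 CPM.

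The series holds 8 samples, 3 of normal mouse brain and 5 of glioblastoma. All 5 tumours, in both groups, were raised with 1 lentiviral vector type that expressed HrasG12V, an activated form of the Ras oncogene, together with shRNA against p53, and were taken at the clinical endpoint as GFP+ tissue freed of surrounding brain under a dissecting microscope. The strain, age and sex of the mice, the promoter in the vector, the infected cells and the region of normal brain are stated in none of the sources used here. Whether each sample was a separate animal is not stated either. The p-values then cover only the spread among these samples, which may in part be technical.

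Olig1 and its neighbour Olig2 encode basic helix-loop-helix transcription factors of the oligodendrocyte lineage. In the brain this lineage runs from dividing precursor cells, which are known by the receptor Pdgfra, the proteoglycan Cspg4 and the factor Sox10, through differentiating cells to mature oligodendrocytes that wrap axons in myelin. Human glioblastomas have been sorted by their transcripts into classes, of which the proneural class expresses oligodendrocyte precursor genes and the mesenchymal class expresses matrix, inflammatory and myeloid genes.

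The libraries held between 5490351 and 15564280 fragments, and the Olig1-high tumours held 5948893 and 15564280, the second lowest and the highest total of the 5 tumours. From here on, CPM values are scaled by the trimmed mean of M values (TMM) and are given for tumours 1 and 4 first and for tumours 2, 3 and 5 after them. Hras, the gene carried by the vector, stood at 476 and 343 CPM in tumours 1 and 4, at 325, 477 and 457 CPM in tumours 2, 3 and 5 and at 92.9, 101 and 101 CPM in the brains, so that the tumour groups overlapped and both lay above brain. Trp53, the target of the hairpin, stood at 2.93 and 2.79 CPM in tumours 1 and 4, at 3.23, 6.01 and 5.54 CPM in tumours 2, 3 and 5 and at 4.67, 7.13 and 4.84 CPM in the brains. Xist, which is made from the inactive X chromosome, was abundant in tumours 1 and 3 at 218 and 146 CPM, and the Y-linked gene Ddx3y was abundant in tumours 2, 4 and 5 at 155, 148 and 217 CPM. Each group therefore held 1 Xist-expressing tumour beside tumours with Ddx3y, so the tumours of a group did not all come from 1 animal. The samples were pieces of tissue, in which fewer cells of a type and less RNA per cell cannot be told apart.

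Of 14225 genes tested beside Olig1, 752 were higher in the Olig1-high tumours, which is 5.29% of those tested, and 186 were lower, which is 1.31%, at an adjusted p below 0.05 in edgeR's quasi-likelihood test with Benjamini-Hochberg adjustment. The 752 higher genes differed by a median log2 fold of 2.21, and 456 of them by at least 4-fold. The 186 lower genes differed by a median of -1.50, and 59 of them by at least 4-fold. Over all tested genes the median log2 fold was -0.02. With all 5 tumours, 3833 of the 14225 genes had an unadjusted p below 0.05 in edgeR, both directions counted. DESeq2 called 1385 higher and 736 lower. The split was made from 1 transcript of these same libraries, so these p-values describe how far the groups lie apart and are no independent evidence about Olig1. An exact rank test of 2 tumours against 3 cannot give a p below 0.1 one-sided or 0.2 two-sided for any single gene. The counts rested on single libraries: edgeR called no gene without tumour 2 or without tumour 3, where 3068 and 2764 genes still had an unadjusted p below 0.05 and DESeq2 called 964 higher and 353 lower, and 826 higher and 293 lower. Without tumour 4 edgeR called 135 genes higher and 21 lower, without tumour 5 it called 324 and 61, and without tumour 1 it called 1788 and 1136.

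**Figure D1:**
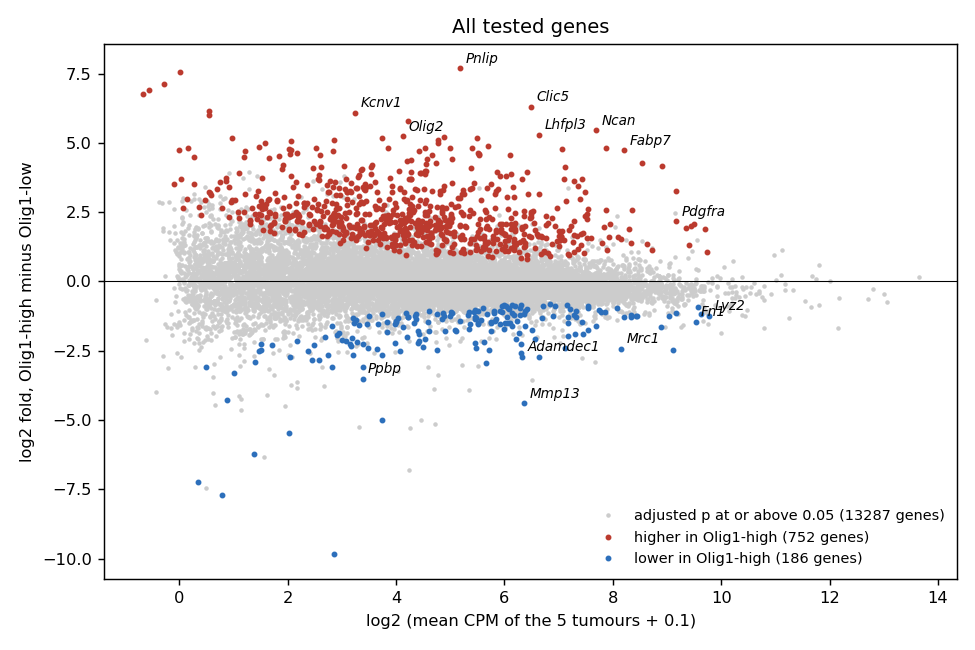
Each point is 1 of 14225 tested genes, with the log2 of its mean CPM over the 5 tumours plus 0.1 on the horizontal axis and its log2 fold between Olig1-high and Olig1-low tumours on the vertical axis. The 752 genes called higher in red reach a log2 fold of 7.69 at Pnlip, and the 186 called lower in blue include Mmp13 at -4.39.

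Most genes of oligodendrocyte precursors were higher in tumours 1 and 4. Of 20 precursor genes, which do not include Olig1, 15 were called higher and the other 5 were not called, against 5.29% called higher among all genes. Their median log2 fold was 3.37, beside -0.02 for all tested genes. In 18 of the 20 both Olig1-high tumours lay above all 3 Olig1-low tumours, an arrangement found in 21.5% of all tested genes. Without tumour 2 or without tumour 3 edgeR called none of the 20, with 17 and 18 higher at an unadjusted p below 0.05, and DESeq2 called 16 and 17. Without tumour 4 edgeR called 11.

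Olig2, the partner of Olig1 that precursor cells need to form, stood at 24.5 and 59.4 CPM against 1.08, 0.511 and 1.71 CPM, a log2 fold of 5.23 ± 0.55 (SE; adjusted p = 0.0145). Sox10, which drives both the precursor programme and later myelin genes, stood at 47.3 and 106 CPM against 2.15, 2.43 and 6.11 CPM, a log2 fold of 4.42 ± 0.52 (adjusted p = 0.0156). Sox8, a close relative of Sox10, stood at 9.08 and 19.7 CPM against 1.08, 1.15 and 1.71 CPM, and Sox6, which holds precursors back from differentiating, at 68.2 and 124 CPM against 5.2, 3.71 and 8.23 CPM. These 4 factors were separated without overlap, and each was at least 3 log2 units apart between the group estimates. Nkx2-2, a homeobox factor of the lineage, was low throughout at 1.54 and 5.88 CPM against 0.179, 2.17 and 0.571 CPM, with tumour 3 above tumour 1, and was not called (adjusted p = 0.194).

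Among receptors and other surface proteins of precursors, Pdgfra, the receptor for the growth factor that keeps precursors dividing, stood at 785 and 1364 CPM against 132, 245 and 362 CPM, a log2 fold of 2.18 ± 0.42 (adjusted p = 0.0313). All 5 tumours lay above the brains, where Pdgfra measured 110.0 ± 14.7 CPM (SD, n = 3), and the Olig1-low tumours thus held more of this transcript than brain. Cspg4, which encodes the NG2 proteoglycan, stood at 30.0 and 61.4 CPM against 6.10, 8.82 and 16.3 CPM, and tumour 5 came closest to the Olig1-high pair. Gpr17, a receptor of cells that are leaving the precursor state, stood at 18.3 and 15.3 CPM against 0.538, 1.53 and 2.61 CPM, and here tumour 1 was above tumour 4. The receptor-type phosphatase Ptprz1 stood at 226 and 465 CPM against 28.0, 26.4 and 33.5 CPM, a log2 fold of 3.61 ± 0.32 (adjusted p = 0.0145). Lhfpl3, a tetraspan membrane protein enriched in precursors, stood at 131 and 349 CPM against 3.95, 3.58 and 10.8 CPM, and the cadherin Pcdh15 at 69.4 and 146 CPM against 2.87, 4.09 and 6.03 CPM. In all of these the 3 Olig1-low values lay below both Olig1-high values. For Lhfpl3 and for Pdgfra 1 library held fragments that were not whole numbers, a sign of reads shared with another transcript.

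The remaining precursor genes ranged more widely. Matn4, a matrix adaptor protein, stood at 18.6 and 71.4 CPM against 0.359, 0.383 and 1.47 CPM, the largest fold on the list at a log2 of 5.8. The brain matrix glycoprotein tenascin-R, Tnr, stood at 53.6 and 109 CPM against 5.74, 11.2 and 11 CPM, and Bcas1, a marker of early myelinating cells, at 108 and 260.2 CPM against 26.0, 17.8 and 20.5 CPM. Cacng4, an auxiliary subunit of AMPA receptors, was scarce in all tumours at 3.08 and 7.30 CPM against 0.359, 0.128 and 0.163 CPM, and Rlbp1, a retinaldehyde-binding protein, stood at 11.1 and 30.3 CPM against 1.79, 2.04 and 2.36 CPM. Besides Nkx2-2, 4 members did not pass the test. Megf11 stood at 25.9 and 67.8 CPM against 3.95, 2.81 and 22.3 CPM, with tumour 5 close to tumour 1, and C1ql1 at 3.85 and 11.2 CPM against 0.897, 2.3 and 1.06 CPM (adjusted p = 0.0535). Neu4 stood at 1.85 and 1.84 CPM against 0.718, 0.511 and 0.245 CPM. Vcan, the proteoglycan versican, ran the other way at 426 and 215 CPM against 753, 472 and 905 CPM, with both Olig1-high tumours below the rest (adjusted p = 0.118).

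**Figure D2:**
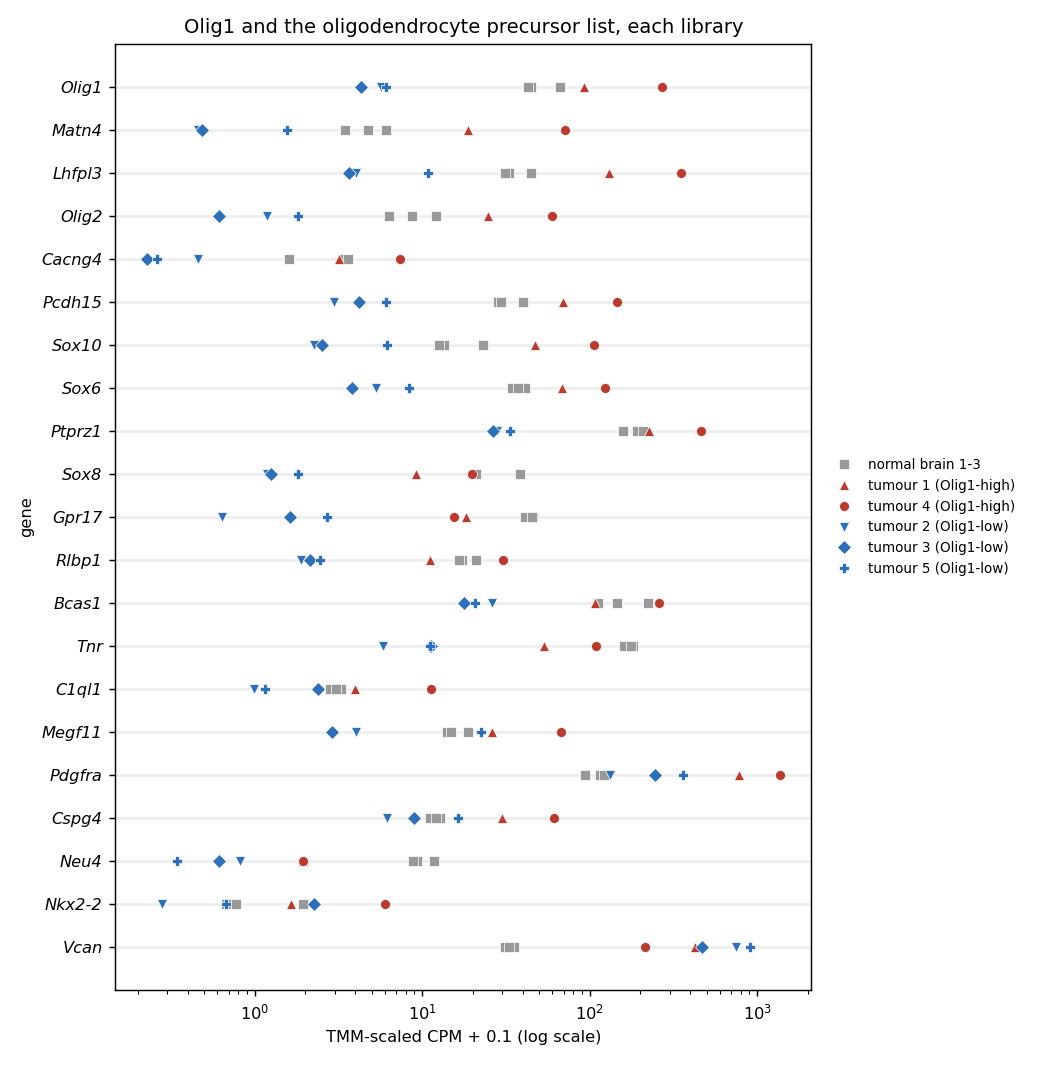
Each row is a gene and each symbol 1 library, with TMM-scaled CPM plus 0.1 on a logarithmic horizontal axis; Olig1, which set the split, is the top row and the 20 precursor genes follow by their log2 fold. Red symbols of tumours 1 and 4 lie to the right of the blue symbols in 18 of the 20 rows, and in the row of Vcan they lie to the left.

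The promoters of 3 of the genes that moved together are shown because each holds a letter motif linked to the lineage's factors in the 250 bases before the transcript start. The motif CAGCTG, which reads the same on both strands, is a form of E-box bound by Olig factors, and ACAATG, or CATTGT on the other strand, is a core that Sox factors bind. The sequences are RefSeq's, from GRCm38.p6, printed 5′ to 3′ on the gene's strand with the motif in capitals. They come from chr16:91225300-91225549 on the plus strand for Olig2, chr5:22745804-22746053 on the plus strand for Lhfpl3 and chr8:70120845-70121094 on the minus strand for Ncan.
Olig2: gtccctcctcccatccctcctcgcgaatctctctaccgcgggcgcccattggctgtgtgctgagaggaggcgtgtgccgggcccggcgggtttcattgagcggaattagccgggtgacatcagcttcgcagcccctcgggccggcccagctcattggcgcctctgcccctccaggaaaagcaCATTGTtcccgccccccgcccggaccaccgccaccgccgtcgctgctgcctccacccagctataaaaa
Lhfpl3: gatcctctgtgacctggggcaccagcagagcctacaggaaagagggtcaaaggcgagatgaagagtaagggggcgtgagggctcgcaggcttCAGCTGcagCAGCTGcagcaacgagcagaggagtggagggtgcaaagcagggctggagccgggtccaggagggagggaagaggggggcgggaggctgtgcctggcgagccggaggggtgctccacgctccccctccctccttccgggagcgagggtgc
Ncan: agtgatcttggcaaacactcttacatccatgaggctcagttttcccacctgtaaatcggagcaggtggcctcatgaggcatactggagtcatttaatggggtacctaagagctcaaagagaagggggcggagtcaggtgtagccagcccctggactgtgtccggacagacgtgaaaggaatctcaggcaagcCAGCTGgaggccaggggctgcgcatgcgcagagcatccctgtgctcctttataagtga
The Sox core of Olig2 begins at base -68 from the start, the E-boxes of Lhfpl3 at bases -158 and -149, and that of Ncan at -58. Of the 20 precursor genes, 14 had a window in the table, and 2 of those held CAGCTG and 2 held ACAATG in at least 1 window. CAGCTG was present in 13% of all 32851 promoter windows of this length, in 15.8% of the 823 windows of genes called higher, in 8.38% of the 191 windows of genes called lower and in 12.2% of the 13282 windows of tested genes that were not called. For ACAATG the shares were 10.7%, 6.68%, 9.42% and 6.20%. No printed window held both motifs. Binding was not measured, and a match describes letters only.

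Fewer genes of later stages of the lineage were called. Of 16 genes of differentiating oligodendrocytes, 5 were called higher, against 5.29% of all genes, and 11 were not called. Their median log2 fold was 1.08. Ugt8a, the enzyme that makes the myelin lipid galactosylceramide, stood at 48.4 and 113 CPM against 14.5, 5.49 and 5.79 CPM, a log2 fold of 3.31 ± 0.54 (adjusted p = 0.0215). Fyn, a Src-family kinase, stood at 156 and 264 CPM against 60.5, 84.8 and 88.5 CPM, the adhesion protein Opcml at 25.6 and 37.1 CPM against 8.25, 5.49 and 8.56 CPM and the deacetylase Sirt2 at 72.5 and 135 CPM against 43.6, 46.9 and 50.9 CPM. Zfp488, a transcriptional repressor that works with Olig2, was the fifth, at 3.70 and 8.79 CPM against 0.359, 0.256 and 0.734 CPM. Myrf, the master regulator of myelin genes, was low at 3.85 and 4.63 CPM against 2.69, 1.92 and 1.63 CPM (adjusted p = 0.151), below the brains at 22.0, 12.1 and 9.55 CPM. Enpp6, a marker of newly formed oligodendrocytes, stood at 3.85 and 2.73 CPM against 1.79, 0.511 and 1.14 CPM, and Itpr2, a marker of the same stage, at 114 and 169.5 CPM against 82.0, 99.0 and 79.2 CPM. Gpr37 stood at 7.39 and 12.5 CPM against 5.74, 4.73 and 3.67 CPM. These 4 were not called. Cemip2, Rras2, Cnksr3, Tmem163 and Nkx6-2 overlapped between the groups, and Tcf7l2 and Bmp4 lay lower in tumours 1 and 4 at 1.69 and 2.79 CPM against 4.13, 4.73 and 4.57 CPM and 1.54 and 1.07 CPM against 2.51, 1.79 and 2.04 CPM, without passing the test.

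Of 16 tested myelin genes, edgeR called 1 higher and 15 were not called, a share near the 5.29% called higher among all genes, with a median log2 fold of 0.49. At an unadjusted p below 0.05 in edgeR 6 were higher and 0 lower, beside 3833 of all 14225 genes with both directions counted. DESeq2 called 5 of the myelin genes higher and 0 lower, beside 1385 and 736 of all genes. The called gene was Cnp, a cytoplasmic myelin enzyme that precursors already express, at 123 and 217 CPM against 70.7, 55.3 and 48.3 CPM, a log2 fold of 1.60 ± 0.29 (adjusted p = 0.0275). Mbp, myelin basic protein, stood at 152 and 133 CPM against 115, 77.2 and 73.9 CPM, and Mog, found on the outer face of myelin, at 1.69 and 2.26 CPM against 1.97, 2.56 and 1.30 CPM. In the 5 tumours Mog was between 3.28% and 6.42% of its brain mean and Mbp between 4.53% and 9.30%. Opalin, on the same list, was too scarce to test.

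Of 18 tested genes that define the proneural class of glioblastoma, 10 were called higher and 8 were not called, against 5.29% called higher among all genes. Their median log2 fold was 2.06. The list shares 3 members, Olig2, Pdgfra and Nkx2-2, with the precursor list. It shares 5, Dcx, Dlx1, Dlx2, Sox11 and Stmn1, with a list of migrating neurons and neuroblasts described below. The brain lecticans, proteoglycans that bind hyaluronan around cells, were among the largest. Ncan, neurocan, stood at 194 and 807 CPM against 12.6, 7.03 and 16 CPM, a log2 fold of 5.45 ± 0.66 (adjusted p = 0.0158), and Bcan, brevican, at 44.0 and 172 CPM against 1.44, 1.02 and 6.11 CPM, a log2 fold of 5.19 ± 0.85 (adjusted p = 0.0256). Dll3, a Notch ligand that acts inside the cell, was detected at 3.39 and 6.12 CPM against 0, 0.128 and 0.652 CPM. Sox11, a factor of immature neural cells, stood at 169.7 and 194 CPM against 87.2, 57.0 and 78.2 CPM, and Sox2, a factor of neural stem cells, at 102 and 108 CPM against 55.8, 58.5 and 68.5 CPM. Members outside this pattern were Sox4 at 71.0 and 77.8 CPM against 67.6, 75.6 and 79.6 CPM and Tcf12 at 573 and 392 CPM against 449, 385 and 439 CPM, both overlapping between the groups.

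The mesenchymal class list gave 1 gene called higher, 2 called lower and 25 not called of 28, with a median log2 fold of -0.54. Over all genes 5.29% were called higher and 1.31% lower. At an unadjusted p below 0.05 in edgeR 2 of the 28 were higher and 12 lower, and DESeq2 called 1 higher and 9 lower. Among all 14225 genes 3833 had such a p, both directions counted, and DESeq2 called 1385 higher and 736 lower. Fn1, which encodes fibronectin, stood at 384 and 323 CPM against 949, 813 and 1223 CPM, a log2 fold of -1.45 ± 0.24 (adjusted p = 0.0214), and Runx1, a transcription factor of blood and mesenchymal cells, at 26.2 and 18.8 CPM against 53.8, 57.9 and 63.8 CPM, a log2 fold of -1.34 ± 0.22 (adjusted p = 0.0208). Casp4, an inflammatory caspase, was the member called higher, at 25.3 and 48.0 CPM against 16, 13.8 and 13.5 CPM. In 15 of the 28 both Olig1-high tumours lay below all Olig1-low tumours, which was the case for 25.5% of all tested genes, and the mean log2 CPM over the list was 6.71 and 6.44 in tumours 1 and 4 and 7.07, 7.20 and 7.19 in tumours 2, 3 and 5, against 2.26, 2.44 and 2.40 in the brains. Both tumour groups thus lay above brain for this list. On the classical class list, Notch3 was called higher, at 9.70 and 17.9 CPM against 3.41, 4.09 and 5.71 CPM, and the other 13 were not called, beside 5.29% of all genes called higher.

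**Figure D3:**
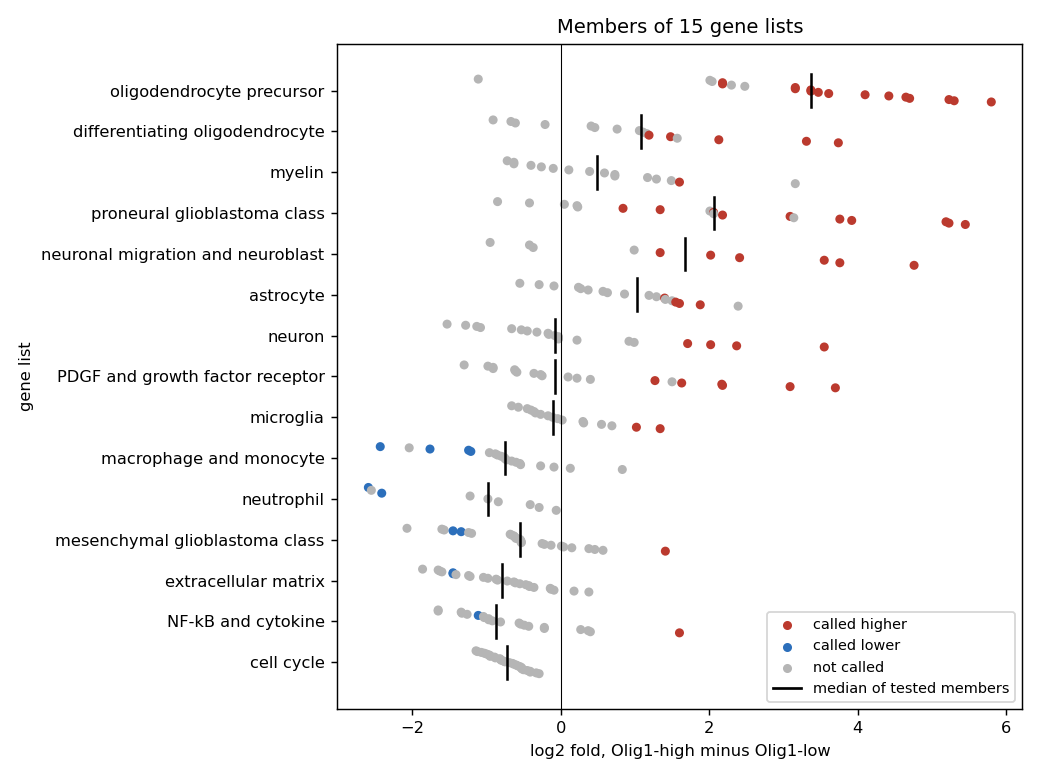
Each point is the log2 fold of 1 tested gene between Olig1-high and Olig1-low tumours, with 1 row per gene list, black bars at the list medians and colour for the edgeR call. The precursor list lies farthest to the right with a median of 3.37, and all 30 cell cycle genes lie left of 0 without a call.

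Neural genes outside the oligodendrocyte lineage were read from lists of migrating and of mature neurons. Of 10 tested neuroblast genes, 6 were called higher, against 5.29% of all genes, and 4 were not called, with a median log2 fold of 1.68. The neuroblast list shares 5 members, Dcx, Dlx1, Dlx2, Sox11 and Stmn1, with the proneural list, so the 2 counts are not separate. Elavl4, an RNA-binding protein of young neurons, stood at 35.3 and 109 CPM against 4.66, 5.75 and 8.56 CPM, a log2 fold of 3.55 ± 0.49 (adjusted p = 0.0158), and Tubb3, the neuronal tubulin, at 108 and 283 CPM against 30.3, 65.0 and 55.6 CPM. Dcx, a microtubule protein of migrating neuroblasts, stood at 14.0 and 29.9 CPM against 1.08, 1.02 and 2.69 CPM, and Igfbpl1 at 3.85 and 15.4 CPM against 0.718, 0.256 and 0.245 CPM. The neuron list shares Elavl4, Tubb3 and Gad1 with the neuroblast list. On the neuron list 4 of 21 were called higher, against 5.29% of all genes, and 17 were not called, with a median of -0.08. The other 2 called members were Map2, a dendritic microtubule protein, at 241 and 448 CPM against 61.4, 54.0 and 92.1 CPM, and Elavl3 at 7.39 and 15.3 CPM against 3.59, 4.09 and 3.26 CPM. The synaptic vesicle genes overlapped: Snap25 stood at 46.2 and 31.9 CPM against 51.8, 38.5 and 32.4 CPM and Syt1 at 42.3 and 19.8 CPM against 46.1, 35.0 and 49.0 CPM. In every tumour Snap25 was between 1.15% and 1.87% of its brain mean and Syt1 between 0.907% and 2.25%, with tumour 4, the library with the most Olig1, at the low end of both. How far leftover brain tissue took part in the differences between the groups was not tested beyond these values.

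Astrocyte and progenitor genes moved in part. Of 18 astrocyte genes 4 were called higher, against 5.29% of all genes, and 14 were not called, with a median of 1.03. The count depended on the tool: DESeq2 called 9 higher and limma on log2(FPKM + 1) called 1, beside 1385 and 579 of all 14225 genes. At an unadjusted p below 0.05 in edgeR 10 were higher and 1 lower, beside 3833 of all genes with both directions counted. The glutamate transporters Slc1a3 and Slc1a2 stood at 336 and 775 CPM against 184, 112 and 174 CPM and at 230.2 and 405 CPM against 109, 87.4 and 141 CPM, and the membrane protein Mlc1 at 79.3 and 155 CPM against 52.2, 37.7 and 48.1 CPM. Fragments of Slc1a2 were partly shared with another transcript in 3 libraries. Gfap, the astrocyte filament, stood at 407 and 842 CPM against 324, 219.8 and 307 CPM, and S100b at 42.0 and 188 CPM against 26.6, 19.4 and 22.5 CPM, neither of them called. Aqp4, the water channel of astrocyte endfeet, overlapped between the groups at 93.9 and 142 CPM against 144, 77.8 and 88.2 CPM. Of 14 tested neural progenitor genes 3 were called higher, against 5.29% of all genes, and 11 were not called. Their median log2 fold was 0.41, 4 of the 14 had a negative fold, and 5 further members were not tested. The 3 were Slc1a3, which is also on the astrocyte list, Sox2 and Fabp7. Fabp7, the fatty acid binding protein of radial glia, had the largest fold of the list. It stood at 306 and 1096 CPM against 38.9, 20.8 and 22.1 CPM, a log2 fold of 4.74 ± 0.58 (adjusted p = 0.0158). Both Olig1-high tumours exceeded the brains, which held 20.0, 26.2 and 34.0 CPM, while the 3 Olig1-low tumours lay near them.

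Receptors for growth factors were tested because Pdgfra belongs to precursors. Of 20 genes of PDGF and related receptor systems, 6 were called higher, against 5.29% of all genes, and 14 were not called, with a median log2 fold of -0.08. Besides Pdgfra these were the neurotrophin receptors Ntrk3, at 25.1 and 59.0 CPM against 3.77, 2.43 and 3.91 CPM, and Ntrk2, at 106 and 220.4 CPM against 61.2, 48.0 and 55.1 CPM, the neuregulin receptors Erbb3, at 17.6 and 24.5 CPM against 1.26, 1.53 and 4.48 CPM, and Erbb4, at 5.85 and 10.7 CPM against 1.26, 2.3 and 2.12 CPM, and Fgfr2, at 22.8 and 23.4 CPM against 10.8, 7.92 and 11 CPM. Of the 4 PDGF ligands Pdgfc came closest to a call, at 11.4 and 6.06 CPM against 16.3, 25.3 and 23.5 CPM (adjusted p = 0.0682). Egfr stood at 136 and 90.1 CPM against 294, 183 and 176 CPM and Met at 114 and 101 CPM against 125, 132 and 140.0 CPM, both lower on average in tumours 1 and 4 without a call. In the Notch pathway Hey1, a target gene, was called higher at 56.2 and 170.2 CPM against 29.6, 22.9 and 32.5 CPM together with Dll3 and Notch3, and 17 of 20 were not called. Among genes switched on by MAPK signalling, Spry2, a feedback inhibitor, was higher at 64.2 and 119.5 CPM against 24.2, 33.2 and 34.6 CPM. Epha2, an ephrin receptor, was lower at 34.3 and 27.9 CPM against 96.9, 72.2 and 102 CPM, and 20 of 22 were not called. The Notch and MAPK counts stand beside 5.29% of all genes called higher and 1.31% called lower.

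The 12 largest rises among genes of at least 10 CPM and without overlap held several that are on no list. Pnlip, pancreatic lipase, stood at 28.8 and 152 CPM against 0, 0.256 and 0.815 CPM, a log2 fold of 7.69 ± 0.97 (adjusted p = 0.0158), and was at 1.17, 0.571 and 0.134 CPM in the brains. Clic5, a chloride intracellular channel protein tied to the cytoskeleton, stood at 108 and 335 CPM against 1.97, 1.92 and 4.40 CPM, a log2 fold of 6.31 ± 0.60 (adjusted p = 0.0145), above the brains at 17.0, 14.3 and 11.6 CPM. Kcnv1, a silent subunit of voltage-gated potassium channels, stood at 14.3 and 31.6 CPM against 0.179, 0.256 and 0.489 CPM, with the brains at 156, 133 and 136 CPM. Lpo, lactoperoxidase, stood at 4.16 and 30.0 CPM against 0.538, 0.511 and 0.489 CPM. Plppr5, a phospholipid phosphatase-related membrane protein, stood at 31.0 and 110.2 CPM against 0.718, 1.28 and 3.51 CPM, Insyn2b at 9.08 and 54.4 CPM against 1.26, 0.767 and 0.815 CPM and Col19a1, a fibril-associated collagen, at 40.2 and 91.3 CPM against 0.179, 1.28 and 3.83 CPM. Pnlip, Clic5, Insyn2b and Lpo exceeded all 3 brains in both Olig1-high tumours, whereas Kcnv1 did not in either. The others of the 12 were Matn4, Ncan, Lhfpl3, Olig2 and Bcan.

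Genes that were lower in the Olig1-high tumours included proteases and myeloid genes. Mmp13, an interstitial collagenase, stood at 8.47 and 4.27 CPM against 149, 163 and 86.8 CPM, a log2 fold of -4.39 ± 0.45 (adjusted p = 0.0145). Itpr3, a calcium release channel, stood at 31.7 and 13.9 CPM against 149, 131 and 175 CPM, a log2 fold of -2.71 ± 0.37 (adjusted p = 0.0158). F7, coagulation factor VII, stood at 3.23 and 0.831 CPM against 12.2, 20.7 and 15.2 CPM, Ppbp, a platelet chemokine, at 2.16 and 0.831 CPM against 17.4, 25.3 and 5.95 CPM, Tmprss11b, a serine protease of epithelia, at 3.85 and 2.49 CPM against 32.7, 9.71 and 17.5 CPM and Bnc1, a zinc finger protein of keratinocytes, at 1.39 and 1.66 CPM against 7.53, 11.1 and 11.4 CPM. Adamdec1, a metalloprotease of macrophages and dendritic cells, stood at 12.9 and 22.7 CPM against 122, 113 and 132 CPM, a log2 fold of -2.71 ± 0.29 (adjusted p = 0.0145), the co-stimulatory ligand Cd80 at 0.770 and 1.54 CPM against 9.69, 8.69 and 13.9 CPM and the macrophage lectin Mgl2 at 1.69 and 2.43 CPM against 19.7, 15.8 and 6.20 CPM. The largest fall belonged to a RefSeq entry without a gene symbol in the tables used, which had 0 fragments in both Olig1-high tumours and 299 over the Olig1-low tumours. With 3 fragments taken as the upper limit for the pair of tumours, it was at least 82.6-fold lower, but its fragments were partly shared with another transcript in 7 of 8 libraries.

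Of 20 macrophage and monocyte genes 4 were called lower and 16 were not called, against 1.31% of all genes called lower, and the median log2 fold was -0.76. Lyz2, lysozyme of myeloid cells, stood at 397 and 546 CPM against 1272, 1286 and 899.5 CPM, a log2 fold of -1.24 ± 0.27 (adjusted p = 0.0399). Mrc1, the mannose receptor, stood at 108 and 44.9 CPM against 216, 439.9 and 618 CPM, a log2 fold of -2.43 ± 0.53 (adjusted p = 0.0432), Msr1, a scavenger receptor, at 104 and 46.2 CPM against 264, 288 and 234 CPM, and Clec7a, the receptor for fungal glucans, at 82.2 and 88.6 CPM against 255, 198 and 158 CPM. Summed over the 20 genes the list held 5715 and 4755 CPM in tumours 1 and 4 and 9617, 8109.9 and 10333 CPM in tumours 2, 3 and 5. Without tumour 5 edgeR called 1 of the 20 lower, and without tumour 2, 3 or 4 it called none, with 9, 9 and 8 lower at an unadjusted p below 0.05 and 4, 5 and 4 called by DESeq2. Without tumour 1 it called 6. On the microglia list 2 of 17 were called higher and 15 were not called, beside 5.29% of all genes called higher, with a median of -0.11. The 2 were Cx3cr1, the fractalkine receptor, at 50.4 and 56.9 CPM against 26.2, 29.9 and 26.3 CPM, and Olfml3 at 82.5 and 146 CPM against 36.8, 49.2 and 54.7 CPM. Of 9 neutrophil genes tested, 2 were called lower, against 1.31% of all genes. They were the gelatinase Mmp9, at 15.7 and 22.2 CPM against 103, 53.9 and 202 CPM, and the decoy receptor Il1r2, at 14.5 and 9.74 CPM against 41.8, 65.7 and 90.0 CPM, which macrophages also express. The granule genes Camp, Ngp, Elane, Mpo and Ltf were at 0 or below 0.6 CPM in every tumour.

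**Figure D4:**
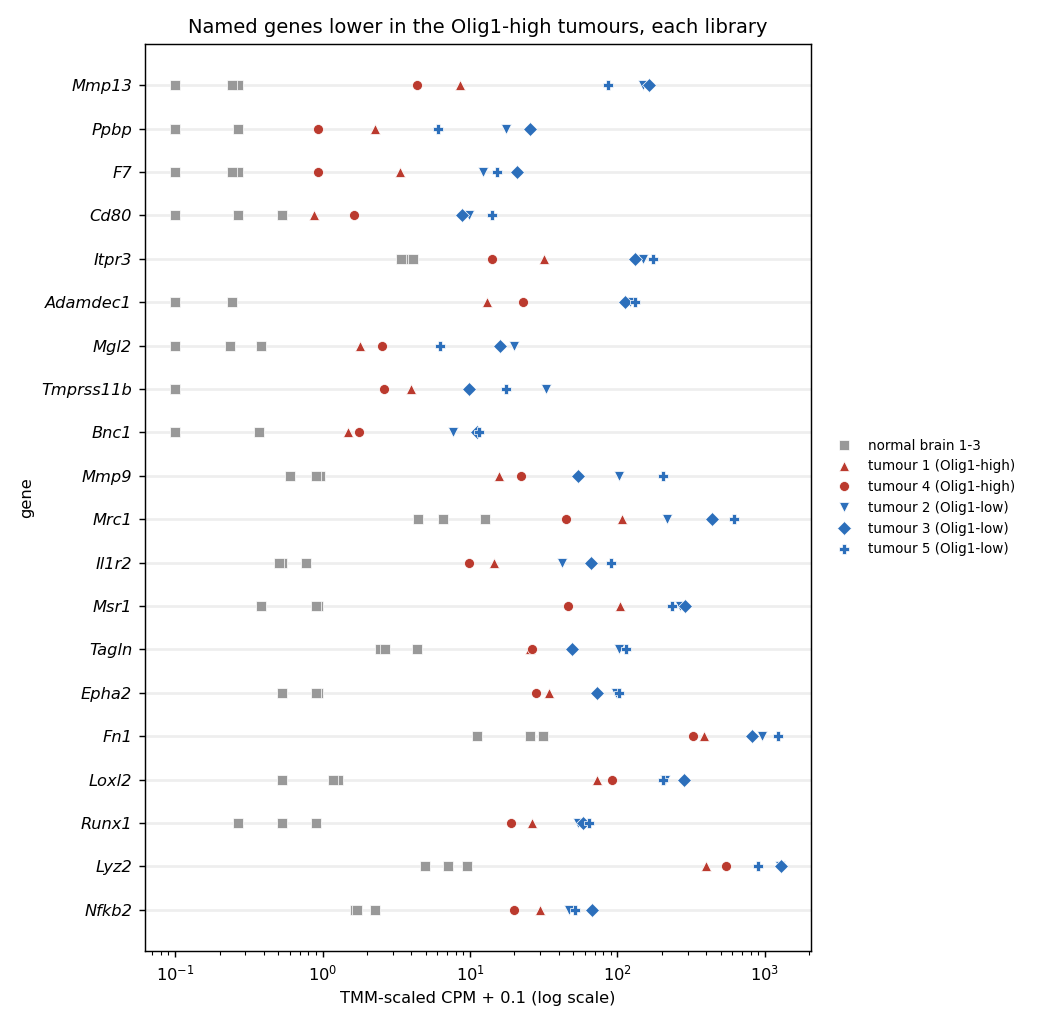
Each row is a named gene that was lower in the Olig1-high tumours and each symbol 1 library, with TMM-scaled CPM plus 0.1 on a logarithmic axis. The red symbols of tumours 1 and 4 lie left of all blue symbols in every row, and for most genes the grey brains lie farther left still.

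Matrix, vascular and inflammatory lists showed few calls in edgeR. Of 26 extracellular matrix genes 2 were called lower, against 1.31% of all genes, and 24 were not called, with a median of -0.79. The 2 were Fn1, which is also on the mesenchymal list, and Loxl2, a collagen-crosslinking enzyme, the latter at 72.4 and 91.4 CPM against 209.5, 284 and 204 CPM. At an unadjusted p below 0.05 in edgeR 12 of the 26 were lower, and DESeq2 called 7 lower. These counts and those of the lists below stand beside 3833 of all 14225 genes with such a p, both directions counted. DESeq2 called 1385 of all genes higher and 736 lower. Of 22 genes of NF-kB and cytokine signalling, Nfkb2, a subunit of the non-canonical pathway, was lower at 29.9 and 19.9 CPM against 46.6, 67.1 and 51.8 CPM. Icam1, an adhesion molecule, was higher at 44.5 and 75.5 CPM against 19.6, 19.0 and 23.1 CPM, and 20 were not called, with a median of -0.86. Over all genes 5.29% were called higher and 1.31% lower. At an unadjusted p below 0.05 in edgeR 10 of the 22 were lower and 1 higher, and DESeq2 called 8 lower and 1 higher. In the endothelial list Esm1, a proteoglycan of tip cells, was higher at 182 and 362 CPM against 80.0, 100.2 and 88.9 CPM. The other 18 of 19 were not called, so the share called was near the 5.29% called higher among all genes. At an unadjusted p below 0.05 in edgeR 4 of the 19 were higher and 5 lower, and DESeq2 called 2 higher and 1 lower. In the pericyte and smooth muscle list Tagln, an actin-binding protein of smooth muscle, was lower at 25.3 and 26.3 CPM against 102, 49.4 and 114 CPM, while Cspg4 and Notch3 were higher and 11 were not called. Cspg4 is also on the precursor list, and Notch3 on the Notch and classical lists, so these calls are not separate from those above. This list too stands beside 5.29% of all genes called higher and 1.31% called lower. Of these 14 genes, 2 were higher and 4 lower at an unadjusted p below 0.05 in edgeR, and DESeq2 called 2 higher and 2 lower. Slc2a3, a glucose transporter, was the 1 of 19 hypoxia and glycolysis genes called, higher at 221 and 267 CPM against 75.7, 122 and 80.9 CPM. That count is also near the 5.29% called higher among all genes. Of 21 p53 target genes 2 were called higher and 19 were not called, beside 5.29% of all genes called higher. The 2 were Plk2 at 397 and 621 CPM against 261, 173 and 170.0 CPM and Gadd45a at 40.8 and 52.7 CPM against 27.4, 21.1 and 22.4 CPM.

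Cell cycle genes all had a negative log2 fold, between -1.14 and -0.29 with a median of -0.72, but edgeR called none of the 30 lower. At an unadjusted p below 0.05 there were 16, DESeq2 called 7 and limma on log2(FPKM + 1) called 0. For all 14225 genes, 3833 had an unadjusted p below 0.05 in edgeR, both directions counted. DESeq2 called 1385 of all genes higher and 736 lower, and limma 579 and 214. In 21 of the 30 both Olig1-high tumours lay below all 3 Olig1-low tumours, an arrangement found in 25.5% of all tested genes. Top2a, the topoisomerase of dividing cells, stood at 464 and 245 CPM against 637, 691 and 434 CPM, so that tumour 1 overlapped the Olig1-low tumours and tumour 4 was lowest. The mean log2 CPM over the list was 5.46 and 4.77 in tumours 1 and 4, 5.89, 6.04 and 5.78 in tumours 2, 3 and 5 and 1.41, 1.25 and 1.37 in the brains. Interferon response genes gave 0 calls of 22 in edgeR, DESeq2 and limma, with 3 lower at an unadjusted p below 0.05, and Ifit2, an interferon-induced protein, overlapped at 140.3 and 125 CPM against 157, 122 and 85.9 CPM. MHC class II genes gave 0 calls of 10 in all 3 tools and 0 at an unadjusted p below 0.05, and Cd74 stood at 62.1 and 78.0 CPM against 58.5, 90.2 and 31.4 CPM. Lymphocyte genes were near the floor: of 18 markers of T and NK cells 4 could be tested, and of 8 B cell markers 2, and none was called by any of the 3 tools, with 1 T cell gene higher and 1 lower at an unadjusted p below 0.05. In the choroid plexus and ependyma list Ttr, transthyretin, stood at 1.23 and 1.13 CPM against 57.9, 70.0 and 0.734 CPM, high in tumours 2 and 3 alone among the tumours, and at 1332, 23.7 and 42.0 CPM in the brains. Aqp1, a water channel, stood at 20.2 and 12.5 CPM against 46.5, 31.8 and 28.9 CPM, with both Olig1-high tumours below the 3 others (adjusted p = 0.0867). The mean log2 CPM over the list was -0.23 and 0.01 in tumours 1 and 4 and 1.64, 1.9 and 0.41 in tumours 2, 3 and 5. The 6 tested genes of that list were not called by edgeR, 3 of them were lower at an unadjusted p below 0.05, and DESeq2 called 3 lower.

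Set beside normal brain, the 752 higher genes were mostly genes with less transcript in the Olig1-low tumours than in brain. The calls chose genes by their levels in these same tumours, so their positions against brain are not independent of the calls. All 3 Olig1-low tumours lay below all 3 brains in 627 of the 752, compared with 5263 of 14225 tested genes. Both Olig1-high tumours lay above all 3 brains in 196 of the 752, below all 3 in 376 and within or across the brain range in 180. Over all 14225 tested genes these counts were 6274, 5063 and 2888. Of the 752, Olig2 and Sox10 were among those above brain, at 12, 6.28 and 8.61 CPM and 22.9, 13.4 and 12.6 CPM in the brains. Tnr and Opcml were among those below, at 160.2, 181 and 176 CPM and 412, 445 and 428 CPM. Of the 186 lower genes, 165 were above all 3 brains in all Olig1-low tumours, compared with 6198 of the 14225 tested. In both Olig1-high tumours 137 of the 186 were above all 3 brains, compared with 6274 of the 14225. The Olig1-high tumours themselves differed. Tumour 4, with the higher Olig1 level, exceeded tumour 1 in 734 of the 752 higher genes, by a median log2 difference of 1.0, whereas over all tested genes that difference was 0.02. Tumour 4 lay below tumour 1 in 141 of the 186 lower genes, by a median of -0.42. On the precursor list the mean log2 CPM was 4.93 and 5.93 in tumours 1 and 4, 1.98, 2.17 and 2.74 in tumours 2, 3 and 5 and 4.44, 4.35 and 4.37 in the brains, so that tumours 1 and 4 lay on the upper side of brain and the others on the lower side.

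**Figure D5:**
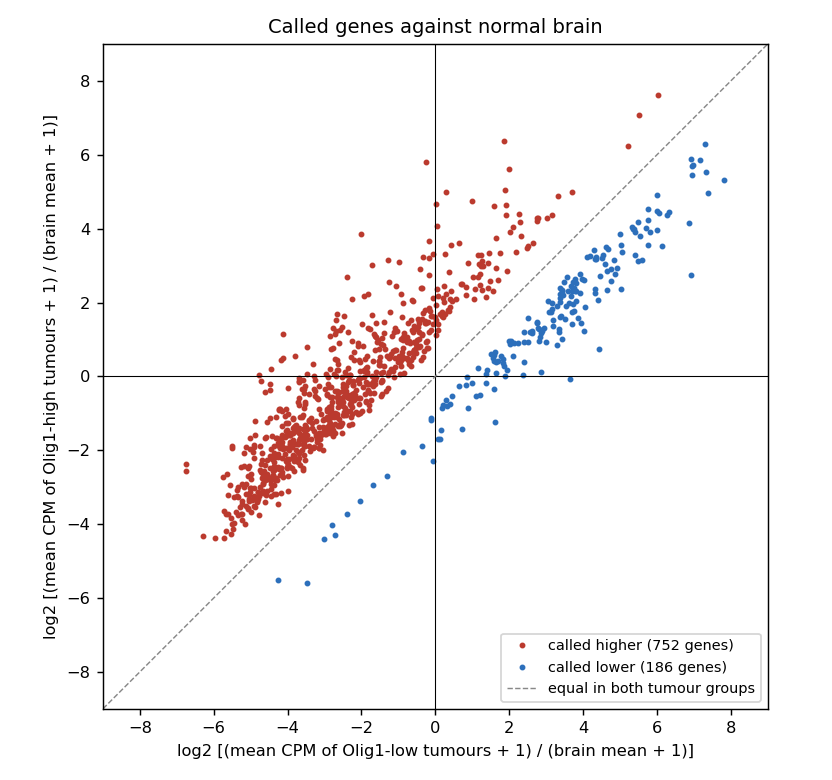
Each point is a called gene, with the log2 ratio of its mean CPM plus 1 to the brain mean plus 1 for the Olig1-low tumours on the horizontal axis and for the Olig1-high tumours on the vertical axis; the dashed line marks equal levels in both tumour groups. Most of the 752 red genes lie left of 0 on the horizontal axis, below brain in the Olig1-low tumours, and most of the 186 blue genes lie in the upper right quadrant, above brain in both groups.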

How the data were processed

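RNA sequencing had been done on 3 normal mouse brains and 5 mouse glioblastomas, from TruSeq libraries, per the labels' protocols. The submitters' processing notes name STAR 2.3.0e, Cuffdiff 2.1.1 and the mm9 build; settings, annotation and strand use are stated in none of the sources used here. The authors deposited estimated counts of fragments and FPKM values for 30967 RefSeq entries per library, per the file headers. Summing the estimated counts of a gene's entries and rounding the sums gave 23523 genes; 315 entries without a symbol, holding 0.507% of fragments, kept their identifiers. A sum that was not whole within 0.01 in at least 1 library marked 608 genes as sharing fragments, and overlapping, antisense and near-identical genes are uncertain.

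The test was edgeR 4.0.16 (robust quasi-likelihood, TMM factors, default low-count filter) on the 5 tumours alone, with Benjamini-Hochberg adjustment over 14226 genes, Olig1 included and then left out of every count. SE values were derived from the F statistic. CPM values were scaled over all 8 libraries, log2 CPM used a prior count of 2, and a list's mean log2 CPM covered all its matched members. Library totals of 5490351 to 15564280 fragments put 3 fragments at 0.193 to 0.546 CPM, which limits counting precision only.

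The split, the 32 gene lists and the tests were chosen with earlier results of these data known. The rule for named genes took, from called genes without overlap whose higher group averaged 10 CPM or more, the 12 largest log2 folds each way; from each list up to 3 abundant called members of the commoner direction and 1 of the opposite one (or 2 abundant members where none was called); all members of the 2 oligodendrocyte lists except Olig1, and Hras and Trp53. Some genes that the rule names are not reported here, and other genes were named after their values were seen. Of the list genes 1 could not be matched. Alternatives were RLE, upper quartile and library-size scaling, other filters, DESeq2 1.42.0, limma 3.58.1 on log2 FPKM, thinning, all 8 libraries in 1 fit, and each tumour left out; DESeq2 with each tumour left out was added after seeing the data. No coordinates on mm9 are given, and promoters came from RefSeq on GRCm38.p6.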

Additional observations from a re-analysis of the deposited data

How the results depend on the processing

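Against 752 genes higher and 186 lower, DESeq2 called 1385 and 736, a fit over all 8 libraries 1637 and 842, and an analysis without the low-count filter 989 and 328. With 1 tumour left out, counts ranged from 0 to 1788 higher and from 0 to 1136 lower in edgeR, and from 275 to 1705 higher in DESeq2, which called 1573, 353, 293, 121 and 385 lower without tumours 1, 2, 3, 4 and 5. The cause was not tested. Over the other settings the counts lay within 1.5 times of the main ones. Of the 752 higher genes, 502 to 752 were also called under each setting that kept all 5 tumours, as were 157 to 186 of the 186 lower genes. On the precursor list 15 genes were called higher, and with a tumour left out 0 to 16 in edgeR and 13 to 17 in DESeq2. Of the macrophage list, 4 genes were called lower, 7 with all 8 libraries in the fit, 8 with DESeq2, 0 to 6 with a tumour left out in edgeR and 4 to 12 in DESeq2. The median log2 fold of the precursor list was 3.37, 2.35 on log2(FPKM + 1), and with a tumour left out 2.66 to 3.78 in edgeR and 2.69 to 3.79 in DESeq2; that of the cell cycle list was -0.72, with -1.01 to -0.41 and -1.0 to -0.39; that of the macrophage list was -0.76, with -1.0 to -0.51 and -0.99 to -0.50. Of 76 called named genes, 65 to 76 were called under each setting that kept all 5 tumours.

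No paired analysis was possible because the labels give the tumours no shared replicate numbers and the split has 2 tumours on one side and 3 on the other. Depth limits genes near 0.5 CPM in the smaller libraries. The groups were cut on a transcript of the same libraries, and with 2 and 3 tumours any other difference that happens to fall the same way cannot be told apart from the Olig1 split.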

Other observations

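The families here were picked after their values were seen, so their counts are descriptions, to be read beside the 5.29% of all tested genes called higher and the 1.31% called lower. Ionotropic glutamate receptor genes, which encode the channels of excitatory synapses and are also expressed by oligodendrocyte precursors, gave 11 of 15 tested called higher and 4 not called, with a median log2 fold of 2.3. All 4 AMPA receptor subunits were among them. Gria4 stood at 79.5 and 233 CPM against 8.07, 8.05 and 17.0 CPM, a log2 fold of 3.86 ± 0.53 (adjusted p = 0.0158), and Gria2, the subunit that sets calcium permeability, at 127 and 225 CPM against 27.6, 27.6 and 41.1 CPM. The kainate receptor genes Grik1, Grik3, Grik4 and Grik5 were also higher, as was Grin3a. The NMDA receptor genes Grin1 and Grin2b, known from neuronal synapses, overlapped between the groups at 5.54 and 7.24 CPM against 7.53, 6.01 and 7.01 CPM and 7.08 and 3.74 CPM against 7.71, 4.47 and 5.30 CPM, far below the brains at 324, 319 and 307 CPM and 569, 687 and 678 CPM.

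Matrix metalloproteinases differed in both directions: of 19 tested, 4 were called higher, 3 lower and 12 were not called. The 4 higher genes encode membrane-anchored enzymes. Mmp15 stood at 40.8 and 88.8 CPM against 1.08, 2.43 and 2.53 CPM, a log2 fold of 5.01 ± 0.45 (adjusted p = 0.0145), Mmp16 at 54.5 and 97.6 CPM against 9.87, 5.62 and 13.5 CPM, Mmp17 at 11.4 and 26.4 CPM against 2.69, 3.19 and 4.65 CPM and Mmp24 at 5.08 and 8.73 CPM against 1.97, 1.53 and 2.45 CPM. The 3 lower genes encode secreted enzymes, Mmp13 and Mmp9 and the macrophage elastase Mmp12, which stood at 31.4 and 43.3 CPM against 197, 303 and 119 CPM. Other membrane-anchored members did not share the direction: Mmp14 stood at 149 and 134 CPM against 191, 205 and 213 CPM and was not called.

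Sulfotransferases that modify chondroitin, keratan and related sugar chains gave 5 of 11 Chst genes called higher, Chst2, Chst3, Chst5, Chst10 and Chst11, and 6 not called. Chst11, which sulfates the chondroitin chains carried by lecticans, stood at 283 and 527 CPM against 114, 156 and 145 CPM. Of 36 collagen genes 4 were higher, 1 was lower and 31 were not called. Col11a1, a fibrillar collagen best known from cartilage, stood at 258 and 383 CPM against 10.8, 14.3 and 31.1 CPM, a log2 fold of 4.13 ± 0.44 (adjusted p = 0.0145), above all 3 brains at 24.9, 13.7 and 15.7 CPM, and Col5a3 was lower at 77.1 and 54.1 CPM against 266, 256 and 226 CPM. Of 17 C-type lectin genes of the Clec family, 5 were lower and 12 were not called, with Clec4n at 27.4 and 30.5 CPM against 121, 134 and 73.2 CPM.

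Of 3 tested genes with an Mcpt symbol, a name given for mast cell proteases, 2 were called higher and 1 was not called. Mcpt1 stood at 47.3 and 53 CPM against 1.44, 0.894 and 7.17 CPM and Mcpt2 at 23.4 and 23.9 CPM against 1.61, 0.383 and 3.99 CPM, mast cell proteases whose sequences are close to each other. The third, Mcpt8, stood at 0.770 and 0.356 CPM against 5.02, 0.767 and 8.40 CPM, with tumour 1 overlapping tumour 3, a log2 fold of -3.15 ± 1.03 (adjusted p = 0.109). Cpa3, mast cell carboxypeptidase, stood at 4.0 and 11.7 CPM against 0.897, 0.383 and 1.55 CPM (adjusted p = 0.0387), and Fcer1a, the alpha chain of the IgE receptor, at 1.69 and 4.93 CPM against 0.179, 0.383 and 0.408 CPM (adjusted p = 0.0321). Kit, a receptor of mast cells and other lineages, did not follow, at 11.4 and 12.4 CPM against 34.8, 12.1 and 9.78 CPM. The brains held 0, 0 and 0.134 CPM of Cpa3.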
